A study of Mus musculus with 10 samples.

Results

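A set of 10 genes of meningeal fibroblasts and their matrix was followed in mouse cerebellum with and without the clock gene Bmal1. The genes were taken by symbol from the deposited tables, which list 22046 protein-coding genes, and all 10 were found. They are the small leucine-rich proteoglycan genes Dcn, Lum, Ogn and Bgn, the collagen genes Col1a1, Col1a2, Col3a1 and Col14a1, the growth factor binding protein gene Igfbp2 and the transporter gene Slc6a13. The knockout mice were Bmal1-/- in all cells, the controls were their Bmal1+/+ littermates, both came from heterozygous parents on a C57BL/6 background, and the light cycle was 12 h on and 12 h off. Age, sex and hour of dissection are not given in the sources used here. From each snap-frozen cerebellum, 1 part of the lysate was digested so that only RNA inside ribosomes was left (footprints, selected at 28 to 34 nucleotides), and the other was kept as total RNA. The 8 libraries used are both kinds of RNA from 2 knockout animals (numbers 1 and 3) and 2 wild-type animals (numbers 2 and 3), so that each comparison is 2 animals against 2.

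The meninges wrap the cerebellum, follow its folds and are partly removed or kept with the tissue when it is dissected. Their fibroblasts secrete fibril-forming collagens, and the small leucine-rich proteoglycans bind those fibrils and set their spacing and thickness. In whole cerebellum these cells are a small minority, and several of the genes are also transcribed elsewhere: Igfbp2 in astrocytes and choroid plexus epithelium, and Col1a2, Col3a1 and Bgn in cells of the vessel wall. In bulk tissue, fewer cells of a type and less RNA per cell cannot be told apart.

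Values are the authors' RPKM, read counts divided by a length and by library depth. The length behind RPKM did not match the gene (it came to 100.1 bases for Dcn, with 1062 coding bases), so RPKM levels were compared only within a gene. For Col14a1 it came to 88.4 bases and for Bgn to 10700. Reads per gene were recovered from the tables and are given where depth matters. A gene is said to have risen or fallen where limma on log2(RPKM + 1) gave a Benjamini-Hochberg adjusted p under 0.05 over all genes whose RPKM averaged 1 or more. This filter, the added 1 and the fitted trend of variance with level use RPKM across genes, so they do depend on that length. A positive log2 fold change is higher in the knockout, and SE is its standard error. The second test, limma-voom on the recovered reads, weighs each value by its depth.

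Depth in recovered reads ran from 25589178 to 43189015 reads for total RNA and 27685144 to 40984826 for footprints, and in total RNA each knockout library was deeper than each wild-type one. Wild type 2 stood apart in Hoxa5, named after its values were seen, a gene of the hindbrain outside the cerebellum, at 40.6 RPKM against 0.727 to 1.57 in the other total RNA libraries. Wild type 3 stood apart in choroid plexus markers, with Ttr at 208 RPKM against 5390.4 to 13916 in the others. Brainstem markers had a median log2 fold change of -1.12 over 8 tested in total RNA and -1.54 over 6 in footprints, while the 1 called, Tph2, was higher in total RNA. The 3 of them with reads in every library summed to 99.6 RPM (recovered reads scaled to library depth alone, with no length) in total RNA of wild type 2, and to 46.1 in wild type 3, against 49.2 and 47.5 in the knockout. In total RNA limma called 1 of 10 oligodendrocyte markers lower (7 at an unadjusted p under 0.05, and 6 lower and 1 higher by limma-voom) and 2 of 12 choroid plexus markers higher (10 at an unadjusted p under 0.05, and 10 higher by limma-voom). It called 2 of 10 granule neuron markers higher (5 at an unadjusted p under 0.05, and 5 higher by limma-voom) and 0 of 10 Purkinje cell markers (1 at an unadjusted p under 0.05, and 1 lower by limma-voom). Of all genes tested in total RNA, limma called 2.48% higher and 1.61% lower, and 22.1% had an unadjusted p under 0.05. Limma-voom called 5.88% higher and 6.25% lower.

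In total RNA, 2 of the 9 genes tested rose (Igfbp2 and Col14a1) and 1 fell (Dcn). Over all 12690 genes tested, 4.09% were called. The median log2 fold change of the 9 was -0.12, against -0.02 over all genes tested. At an unadjusted p under 0.05 there were 4 of the 9, against 22.1% of all genes. With limma-voom 5 of the 10 were called, where 12.1% of 13880 genes were. Of these, 3 were higher (5.88% of all genes), Col1a1 in addition, and 2 were lower (6.25%), Ogn in addition. In footprints none of the 10 was called by limma (0.233% of 12447 genes were). At an unadjusted p under 0.05 there were 3, against 10.4% of all genes, and limma-voom called 1, Igfbp2, against 1.53% of all genes (0.886% higher and 0.641% lower).

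**Figure D1:**
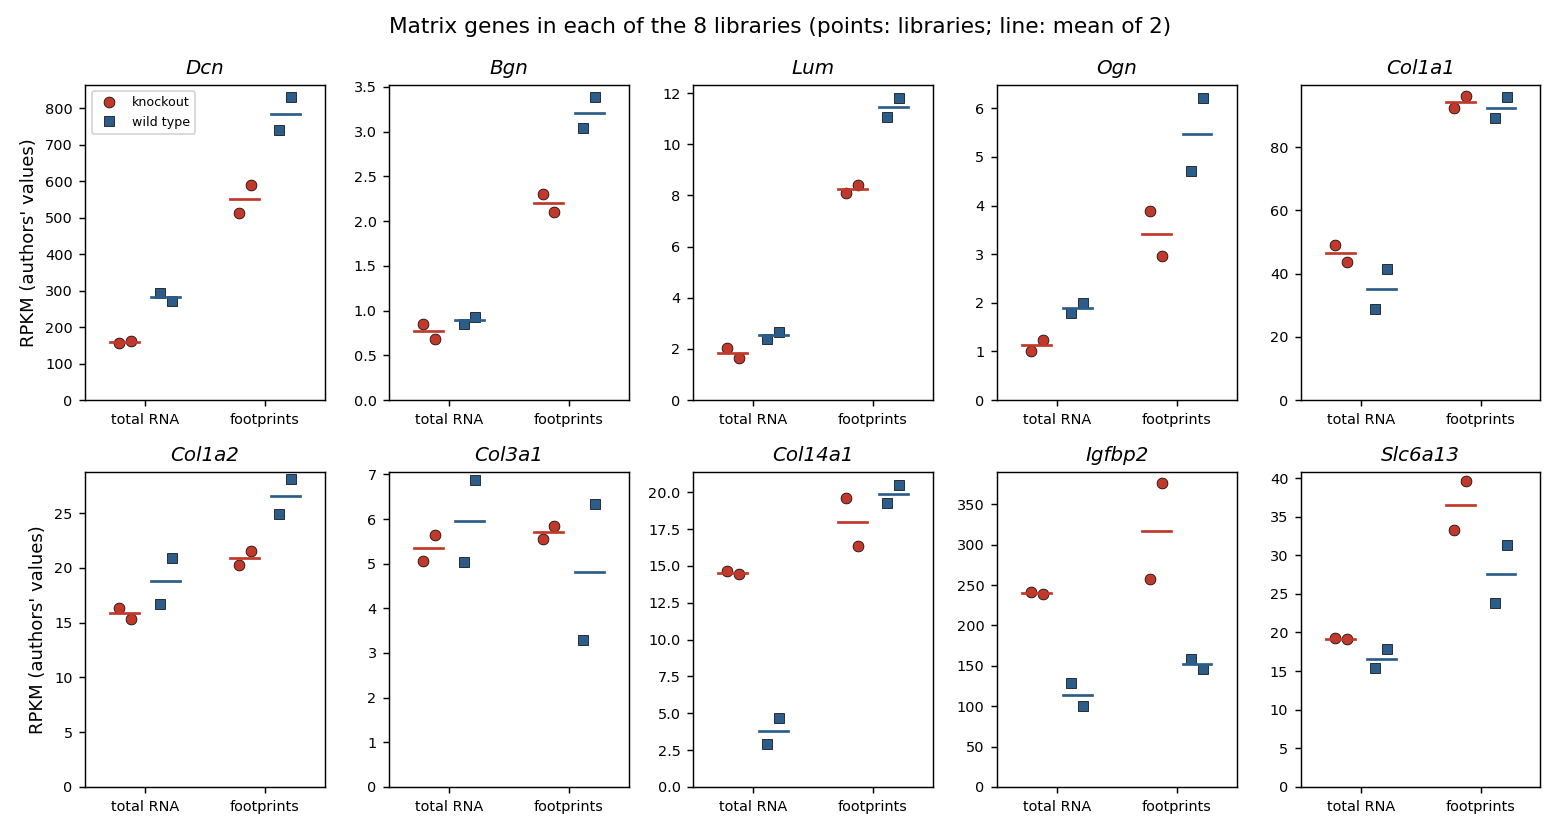
Authors' RPKM (vertical axis, linear, from 0, own scale per gene) of the 10 genes in total RNA and footprints. Circles are the knockout animals, squares the wild-type animals and lines the mean of 2. Dcn, Lum, Ogn and Col1a2 lay lower in both knockout animals in both kinds of library, Igfbp2 and Slc6a13 lay higher in both, and Col14a1 differed in total RNA but not in footprints. Of all genes tested, 30.3% lay wholly lower in total RNA and 22.6% in footprints, and 24.7% and 17.1% wholly higher.

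Of the 4 proteoglycan genes Dcn fell in total RNA, and the others had lower means in the knockout, with Ogn called only with limma-voom or a filter on read counts. Dcn (ENSMUSG00000019929, mm10 chromosome 10, 97479609 to 97518143) encodes decorin, which coats collagen fibrils and binds TGF-beta. Its total RNA was 156 and 163 RPKM in knockout animals 1 and 3 and 295 and 272 in wild-type animals 2 and 3. Both knockout animals lay below both wild-type animals by more than the spread within either group. Dcn fell from 283 ± 16.4 to 159 ± 5.52 RPKM (SD, n = 2), 0.563 times the wild-type level (log2 fold change -0.82, SE 0.09, limma adjusted p = 0.00916). The call was lost without knockout 1 (adjusted p = 0.057) and with no filter on low values (0.0641). Dcn footprints were 512 and 589.5 RPKM in the knockout and 739.9 and 830.1 in the wild type, again without overlap. That difference (-0.51, SE 0.13) missed the threshold (limma adjusted p = 0.264, limma-voom adjusted p = 0.144).

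Lum (ENSMUSG00000036446, chromosome 10, 97565128 to 97572703), the gene of lumican, starts 47.0 kb beyond the end of Dcn on the same strand. Its total RNA was 2.02 and 1.64 RPKM in the knockout and 2.39 and 2.66 in the wild type (-0.32, SE 0.14, limma adjusted p = 0.253). These values rest on 90 to 113 reads per library. Lum footprints, at 339 to 560 reads, were 8.08 and 8.39 RPKM in the knockout and 11.1 and 11.8 in the wild type (-0.43, SE 0.15, adjusted p = 0.418). The groups lay apart in both kinds of library, with the knockout at 0.725 and 0.720 of the wild-type mean.

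Ogn (ENSMUSG00000021390, chromosome 13, 49608046 to 49624501) encodes osteoglycin, also called mimecan. Its total RNA was 1.01 and 1.24 RPKM in the knockout and 1.79 and 2.00 in the wild type. By limma this was not called (-0.45, SE 0.14, adjusted p = 0.149). RPKM of Ogn is near the pseudocount of 1, which shrinks its fold change, although 221 to 316 reads stand behind each value. On the reads themselves the difference was -0.78 (SE 0.19) and was called (limma-voom adjusted p = 0.00786), and limma called it where the filter was a mean of 100 reads instead of an RPKM (adjusted p = 0.0361). Ogn footprints were 3.89 and 2.95 RPKM in the knockout and 4.71 and 6.22 in the wild type (-0.55, SE 0.23, adjusted p = 0.4997).

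Bgn (ENSMUSG00000031375, chromosome X, 73483602 to 73495933) encodes biglycan, the closest relative of decorin. It missed the RPKM filter in total RNA, with 0.853 and 0.683 RPKM in the knockout and 0.849 and 0.934 in the wild type, and the groups overlapped. Those values stand for 246 to 367 reads per library, and limma-voom gave -0.25 (SE 0.19, adjusted p = 0.42). Bgn footprints were 2.30 and 2.10 RPKM in the knockout and 3.03 and 3.39 in the wild type, with no overlap (-0.40, SE 0.21, limma adjusted p = 0.618).

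The knockout thus lay wholly below the wild type in 3 of the 4 proteoglycan genes in total RNA and in 4 of 4 in footprints. Of all genes tested, 30.3% lay wholly below in total RNA and 22.6% in footprints. Summed over the 4 genes, total RNA came to 34.1 and 33.9 RPM in the knockout and 54.7 and 54.0 in the wild type. Footprints came to 103.8 and 105.6 RPM in the knockout and 141.3 and 162.2 in the wild type. In total RNA the animals of a genotype were thus close to each other, and in every library Dcn gave more of the sum than Lum, Ogn or Bgn.

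The fibrillar collagens did not move as a block. Col1a1 and Col1a2 encode the chains of type I collagen, which join in 1 trimer with more alpha 1 than alpha 2, and Col3a1 encodes type III collagen, found with type I in compliant tissue. Col1a1 total RNA (ENSMUSG00000001506, chromosome 11, 94936224 to 94953042) was 48.9 and 43.8 RPKM in the knockout and 28.8 and 41.3 in the wild type. By limma it was not called (0.41, SE 0.18, adjusted p = 0.237). By limma-voom it was called higher (0.39, SE 0.13, adjusted p = 0.0389), and by limma also without wild type 3 (0.67, adjusted p = 0.0465). Wild type 2 was the lowest library. Col1a1 footprints were 92.5 and 96.2 RPKM in the knockout and 89.2 and 95.8 in the wild type, a difference of 0.03 (SE 0.12, adjusted p = 0.974) with overlapping groups.

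Col1a2 (ENSMUSG00000029661, chromosome 6, 4504814 to 4541544) lay on the other side. In total RNA it was at 16.3 and 15.4 RPKM in the knockout and 16.7 and 20.9 in the wild type (-0.23, SE 0.13, limma adjusted p = 0.373). Its footprints were 20.3 and 21.5 RPKM in the knockout and 24.9 and 28.1 in the wild type (-0.33, SE 0.14, adjusted p = 0.527). Neither difference was called, by limma or by limma-voom, although the groups did not overlap.

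Within a library, the reads of Col1a1 over those of Col1a2 give a ratio that depends on neither depth nor the RPKM length. In total RNA it was 0.855 and 0.814 in the knockout and 0.492 and 0.564 in the wild type. In footprints it was 1.30 and 1.28 in the knockout and 1.02 and 0.972 in the wild type. The ratio of reads was thus higher in both knockout animals in both kinds of library, which share their lysates. How often the ratio of 2 genes lies apart in this way was not counted. Of single genes, 24.7% lay wholly higher and 30.3% wholly lower in total RNA, and 17.1% and 22.6% in footprints. With 2 animals against 2, an exact permutation test of the Col1a1 to Col1a2 ratio cannot pass 0.05, and none was made.

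Col3a1 (ENSMUSG00000026043, chromosome 1, 45311538 to 45349706) showed no difference beyond the spread. In total RNA it was at 5.05 and 5.65 RPKM in the knockout and 5.05 and 6.88 in the wild type (-0.12, SE 0.16, limma adjusted p = 0.701). Its footprints were 5.55 and 5.85 RPKM in the knockout, and 3.29 in wild type 2 and 6.34 in wild type 3 (0.26, SE 0.29, adjusted p = 0.879). The wild-type animals differed from each other more than the genotypes did, and the sign turned when 1 of them was left out.

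Col14a1 (ENSMUSG00000022371, chromosome 15, 55307750 to 55520803) had the largest fold change of the 10 genes, on the fewest reads. It encodes a collagen that binds to fibrils rather than forming them. Its total RNA was 14.6 and 14.4 RPKM in the knockout and 2.92 and 4.69 in the wild type, and it rose by a log2 fold change of 1.72 (SE 0.19, limma adjusted p = 0.00964). These values are 52 and 57 reads in the knockout and 7 and 12 in the wild type. The pooled ratio, 109 knockout reads against 19 wild-type reads, set against the summed depths of the libraries, was 3.73 (exact 95% interval 2.28 to 6.43, for counting error only). Limma on RPKM takes no account of read depth, so its SE of 0.19 and adjusted p are likely too small here. Limma-voom, which weighs depth, also called it with a larger SE (1.87, SE 0.57, adjusted p = 0.0299). With no filter on low values the limma call was lost (adjusted p = 0.0937). Its mean read count is under 100, so that it drops out of a test with that filter. Col14a1 footprints were 19.6 and 16.3 RPKM in the knockout and 19.3 and 20.5 in the wild type, 110 pooled reads in each genotype, with a ratio of 0.925 (0.704 to 1.22) and overlapping groups (-0.14, SE 0.16, limma adjusted p = 0.872).

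**Figure D2:**
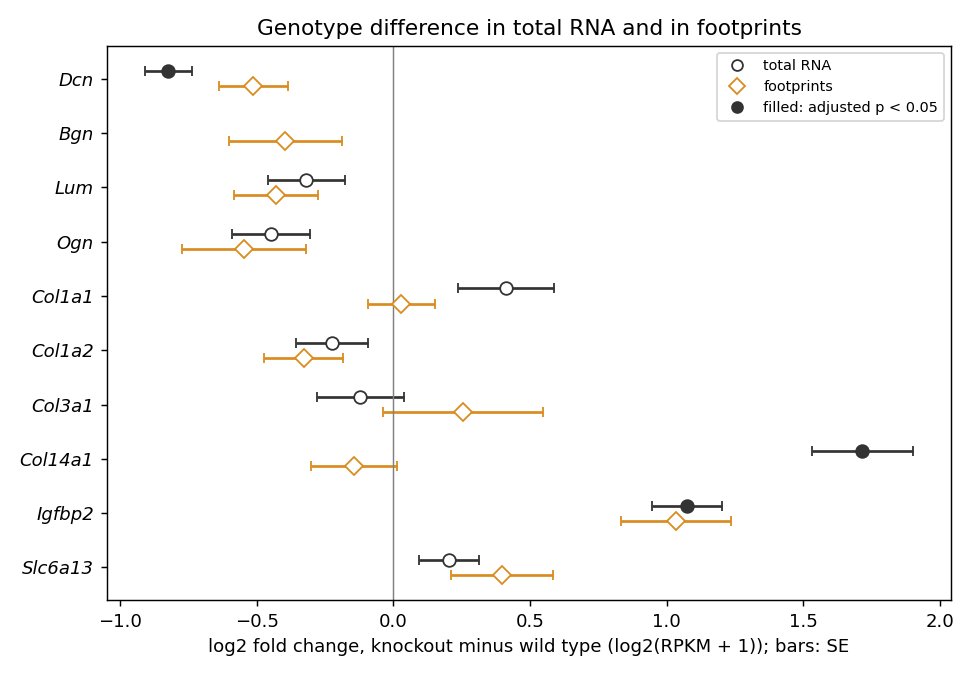
Log2 fold change (horizontal axis, knockout minus wild type, with the SE of limma as bars) of each gene in total RNA (circles) and footprints (diamonds); filled symbols have an adjusted p under 0.05. Dcn, Col14a1 and Igfbp2 are filled in total RNA, no gene is filled in footprints, and Bgn has no total RNA symbol because it missed the filter. The bars take no account of read depth, which is low for Col14a1.

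Igfbp2 was the member that was higher to the same degree in both kinds of library. It encodes a secreted protein that binds insulin-like growth factors and limits their access to the receptor. Igfbp2 (ENSMUSG00000039323, chromosome 1, 72824503 to 72852474) had total RNA of 242 and 239 RPKM in the knockout and 128 and 100.4 in the wild type. It rose 2.10-fold, from 114 ± 19.8 to 240.3 ± 2.19 RPKM (SD, n = 2; log2 fold change 1.07, SE 0.13, limma adjusted p = 0.0128). Without knockout 1 the call was lost (adjusted p = 0.057), as it was with no filter on low values (0.0937). Igfbp2 footprints were 258 and 377 RPKM in the knockout and 158 and 145 in the wild type, a ratio of means of 2.09. By limma this was not called (1.03, SE 0.20, adjusted p = 0.169), and by limma-voom it was (1.02, SE 0.19, adjusted p = 0.0101), as it was by limma with all libraries in 1 fit (0.0384).

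Choroid plexus markers moved with Igfbp2. Of 16 listed choroid plexus genes 15 were in the table and 14 had reads in every library. Summed over those 14, the knockout libraries of total RNA had 1930 and 2277 RPM, wild type 2 had 910.3 and wild type 3 had 74.8. Between wild type 2 and wild type 3 the defining gene Ttr went from 5390.4 to 208 RPKM, and Igfbp2 from 128 to 100.4. The part of choroid plexus tissue in the Igfbp2 difference was not tested. Astrocyte and Bergmann glia markers, with Fabp7 higher and S100b lower among 11 tested (5 at an unadjusted p under 0.05, and 2 higher and 2 lower by limma-voom), summed to 8005 and 8109 RPM in the knockout and 7607 and 7374 in the wild type, and their part was not tested either. Of all genes in total RNA, 22.1% had such a p, and limma-voom called 5.88% higher and 6.25% lower.

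BMAL1 and its partner CLOCK bind the E-box motif CACGTG, which reads the same on both strands. RefSeq promoter windows on GRCm38.p6, the assembly behind mm10, were given for 6 of the 10 genes (Igfbp2, Col1a2, Col3a1, Slc6a13, Ogn and Bgn, 9 windows in all), and their 250 bases before the start were searched. The motif was in 1 window, the first of Igfbp2, at chromosome 1, 72824338 to 72824343, beginning 142 bases before the start. Of all 32851 such windows 6.02% hold it. The window of Igfbp2 is shown with the motif in capitals, and those of Ogn and Bgn, the proteoglycan genes with an entry, are shown for comparison. A match describes the letters only.
Igfbp2, chr1:72824230-72824479, plus strand: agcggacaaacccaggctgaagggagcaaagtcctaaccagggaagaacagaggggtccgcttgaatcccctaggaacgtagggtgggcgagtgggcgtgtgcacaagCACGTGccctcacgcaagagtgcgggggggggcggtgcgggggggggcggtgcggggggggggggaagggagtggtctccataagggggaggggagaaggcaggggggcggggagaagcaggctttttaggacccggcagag
Ogn, chr13:49607765-49608014, plus strand: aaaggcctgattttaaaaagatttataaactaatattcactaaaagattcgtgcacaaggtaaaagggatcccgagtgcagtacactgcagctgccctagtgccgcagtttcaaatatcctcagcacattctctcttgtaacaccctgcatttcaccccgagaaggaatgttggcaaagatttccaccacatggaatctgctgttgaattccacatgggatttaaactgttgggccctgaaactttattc
Bgn, chrX:73483351-73483600, plus strand: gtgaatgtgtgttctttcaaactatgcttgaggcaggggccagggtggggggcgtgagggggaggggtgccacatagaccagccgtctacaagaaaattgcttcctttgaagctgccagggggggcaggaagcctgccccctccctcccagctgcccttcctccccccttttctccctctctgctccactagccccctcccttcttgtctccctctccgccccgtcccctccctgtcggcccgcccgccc

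Slc6a13 (ENSMUSG00000030108, chromosome 6, 121300227 to 121337733) encodes GAT2, a transporter of GABA, betaine and taurine in meningeal cells. Its total RNA was 19.3 and 19.1 RPKM in the knockout and 15.4 and 17.8 in the wild type (0.20, SE 0.11, limma adjusted p = 0.34). Its footprints were 33.3 and 39.6 RPKM in the knockout and 23.8 and 31.4 in the wild type (0.40, SE 0.19, adjusted p = 0.563). The knockout lay wholly above the wild type in both kinds of library, as did 24.7% of all genes tested in total RNA and 17.1% in footprints, and neither test called it. Its relative Slc6a12, which transports betaine and GABA, rose in total RNA from 2.77 to 6.53 RPKM (1.00, SE 0.12, limma adjusted p = 0.0127). Slc6a12 was the 1 call among 5 tested genes of its list in total RNA, where 2.48% of all genes rose. In footprints limma called none of the 5 (2 at an unadjusted p under 0.05, against 10.4% of all genes). The calls of limma-voom there were 1 higher and 1 lower, against 0.886% and 0.641% of all genes.

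Levels can be set side by side between genes as recovered reads per kilobase, divided by library depth, with GENCODE M21 exon length for total RNA. The exon length joins all annotated isoforms and so understates genes with long alternative exons. In wild-type total RNA Igfbp2 was highest, at 21.4 and 16.5. Col1a2 (6.20 and 7.67), Col1a1 (5.78 and 8.19), Dcn (5.35 and 4.85) and Ogn (4.02 and 4.44) followed. Col1a2 and Col1a1 overlapped, while Dcn and Ogn did not overlap with each other or with the collagens. Slc6a13 (3.32 and 3.80), Col3a1 (1.82 and 2.44), Bgn (1.58 and 1.71) and Lum (1.44 and 1.57) were lower, and Col14a1 was at 0.0390 and 0.0617. In knockout total RNA Igfbp2 was again highest (39.3 and 38.9), and Dcn, at 2.75 and 2.90, lay below Slc6a13 at 4.07 and 4.05. The place of Dcn depends on its joined exon length of 5838 bases, against 1062 coding bases. In footprints per kilobase of coding sequence Dcn was highest in the wild type (66.7 and 74.8), above Igfbp2 (48.1 and 44.2). In knockout footprints Igfbp2 was highest (78.5 and 116), and Dcn (46.2 and 53.7) lay above Slc6a13 (10.3 and 12.4).

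Translational efficiency, the footprint RPKM of an animal divided by its total RNA RPKM, is free of the length and can be compared between genes. The 4 proteoglycan genes had high ratios in every animal. Among 11495 genes with at least 50 reads in every library, the median ratio was 0.938 to 0.967 and the 95th percentile 2.61 to 2.79. Lum had 3.99 and 5.11 in the knockout and 4.63 and 4.43 in the wild type, and stood between percentiles 98.9 and 99.8. Dcn had 3.29, 3.61, 2.51 and 3.06 in the same order of animals (percentiles 93.7 to 98.6). Bgn had 2.70, 3.07, 3.58 and 3.63 (94.3 to 98.6), and Ogn 3.86, 2.39, 2.64 and 3.11 (92.9 to 98.7). The region over which reads were counted is not given in the sources used here, and total RNA also covers untranslated parts, so these ranks depend on it.

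The fibrillar collagens spread from high to below the median. Col1a1 had ratios of 1.89 and 2.20 in the knockout and 3.10 and 2.32 in the wild type (percentiles 84.4 to 97.3), Col1a2 had 1.24, 1.40, 1.49 and 1.34 (64.8 to 74.1), and Col3a1 had 1.10, 1.04, 0.652 and 0.922 (28.9 to 58.3). Slc6a13 lay between 1.55 and 2.07 and Igfbp2 between 1.07 and 1.58. Col3a1 was thus the lowest of the 9 genes with at least 50 reads in every library, in each of the 4 animals except knockout 1, where Igfbp2 was lower.

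No gene of the set changed in efficiency between genotypes by limma (0 of 9 tested, against 0.0165% of 12089 genes). At an unadjusted p under 0.05 there was 1, Col14a1, against 4.55% of all genes, and limma-voom called 0 of 10 (0.0072% of all genes, all of them lower). Col14a1 had ratios of 1.34 and 1.13 in the knockout and 6.59 and 4.37 in the wild type, with 7 and 12 reads in the wild-type denominators. The difference was -1.86 (SE 0.26, limma adjusted p = 0.226, and 0.203 with the animal as a block). By limma-voom, which weighs depth, it was -2.00 with a larger SE (0.80, adjusted p = 0.981). Dcn differed by 0.31 (SE 0.15), Col1a1 by -0.38 (SE 0.24) and Col3a1 by 0.38 (SE 0.36), each with a limma adjusted p of 0.997. In these 3 and in Bgn and Col14a1 the ratios of the genotypes did not overlap, 2 higher and 3 lower in the knockout, against 14.3% and 17.5% of all genes.

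**Figure D3:**
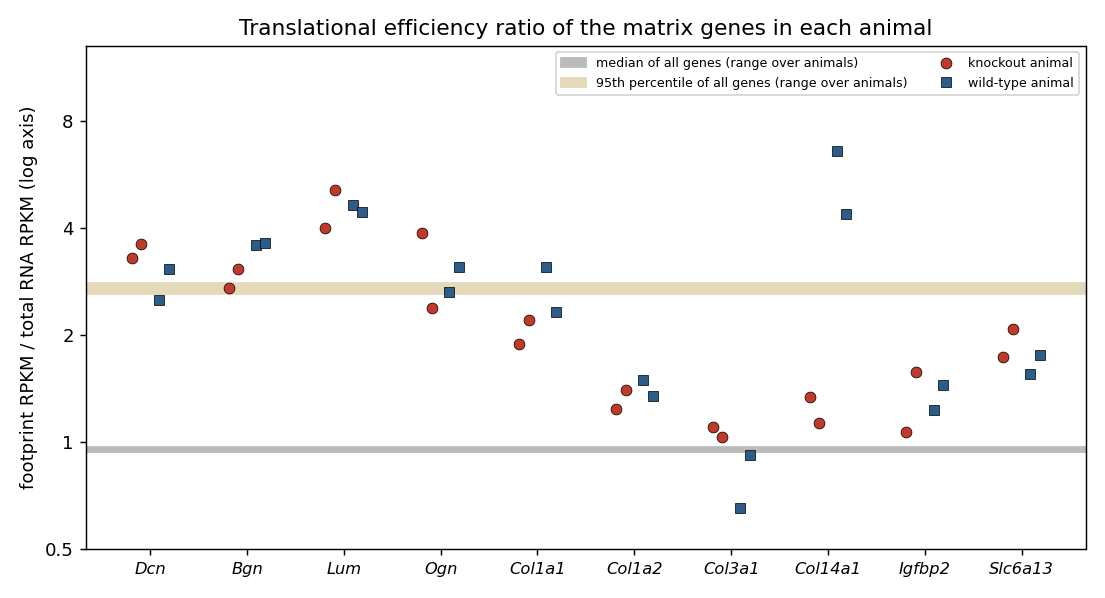
Footprint over total RNA RPKM (vertical axis, log scale) of each gene in each knockout animal (circles) and wild-type animal (squares), with the median and the 95th percentile of 11495 genes as bands (their range over the 4 animals). The proteoglycan genes lie around or above the upper band and Col3a1 around the lower one, and the wild-type ratios of Col14a1 rest on 7 and 12 total RNA reads.

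Other genes that make or cut the collagen matrix were read from lists of related genes. Of 27 tested genes of collagen processing and cross-linking, 4 rose in total RNA and 1 fell, where 2.48% of all genes rose and 1.61% fell. Mmp14, the membrane-bound collagenase, went from 5.72 and 5.67 RPKM in the wild type to 23.2 and 23.9 in the knockout (1.88, SE 0.10, limma adjusted p = 0.00168). It was the only one of 29 tested that rose in footprints, where 0.129% of all genes rose. Its footprints went from 9.45 and 10.9 to 40.0 and 43.2 RPKM (1.93, SE 0.15, adjusted p = 0.0304). The call was lost without any 1 of the 4 footprint libraries, as were most footprint calls over all genes. Sparc, which encodes a collagen-binding matricellular protein, rose by 0.80 (SE 0.08, adjusted p = 0.00861). Pcolce, whose product speeds the trimming of procollagen, rose by 0.83 (SE 0.14, adjusted p = 0.0326), and Adamts2, a procollagen peptidase gene, by 0.62 (SE 0.07, adjusted p = 0.0135). Timp3, an inhibitor of matrix metalloproteinases, was at 202 RPKM in the wild type and fell to 112 (-0.84, SE 0.10, adjusted p = 0.0114).

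Of 14 other tested fibril-forming and fibril-associated collagens 2 rose in total RNA and 0 fell, where 2.48% of all genes rose and 1.61% fell. The median log2 fold change of the 14 was -0.05, against -0.02 over all genes tested. The 2 that rose encode type V collagen chains, which sit inside type I fibrils. Col5a3 went from 2.41 and 3.84 RPKM in the wild type to 13.8 and 16.8 in the knockout (1.99, SE 0.19, limma adjusted p = 0.00822), and Col5a1 from 29.1 and 41.9 to 69.5 and 73.1 (1.01, SE 0.17, adjusted p = 0.0355). In footprints neither was called (1.43, adjusted p = 0.183, and 0.84, adjusted p = 0.375).

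Of the other small leucine-rich proteoglycan genes 10 were in the table and 5 could be tested in total RNA, and none was called by limma. Omd, the osteomodulin gene, had an unadjusted p under 0.05 and was called by limma-voom (adjusted p = 0.0368). It was at 1.16 and 1.86 RPKM in the knockout and 4.22 and 3.24 in the wild type (-0.92, SE 0.19, limma adjusted p = 0.0571). Fmod (-0.08), Prelp (0.09), Ecm2 (0.11) and Nyx (0.27) had adjusted p from 0.54 to 0.826. These 5 genes are named after their values were seen, as all those of the list that could be tested.

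None of 10 tested genes of insulin-like growth factors, their receptors and other binding proteins was called by limma in total RNA (5 at an unadjusted p under 0.05, and 3 higher and 1 lower by limma-voom, where 22.1% of all genes had such a p and 5.88% were higher and 6.25% lower by limma-voom). None of 16 TGF-beta and connective tissue regulators was called either (3 at an unadjusted p under 0.05, and 2 higher and 1 lower by limma-voom).

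**Figure D4:**
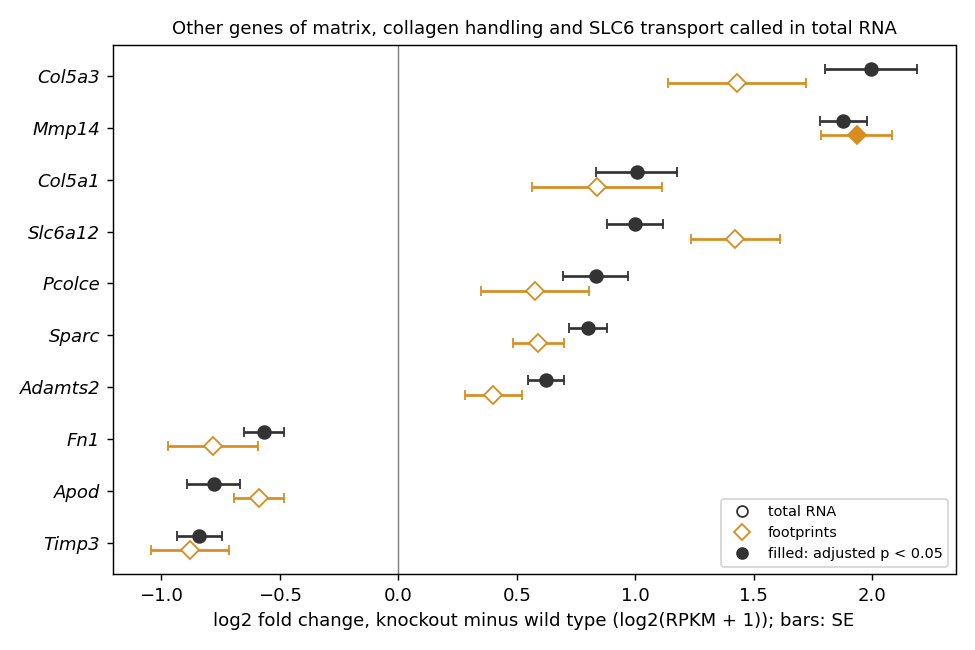
Log2 fold change (horizontal axis, knockout minus wild type, with the SE of limma as bars) in total RNA (circles) and footprints (diamonds) of the 10 genes of the related lists that were called in total RNA; filled symbols have an adjusted p under 0.05. Of the 10, 7 were higher and 3 lower, and Mmp14 is also filled in footprints.

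These 10 calls in total RNA depended on the libraries kept. With 1 library left out a group has 1 animal, and fewer of the 10 were then called. The loss was largest without a knockout library, where fewer of all genes were called as well. Limma-voom called all 10 in total RNA and 6 in footprints. The 10 were picked by their limma calls in these same total RNA libraries, and the footprints share their lysates. These counts are therefore no independent check. The shares of all genes, 12.1% and 1.53%, are of genes not picked in this way, and no conclusion is drawn from the difference.

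Of 26 other tested markers of meningeal and brain fibroblasts 2 fell in total RNA and none rose, with a median log2 fold change of -0.11. At an unadjusted p under 0.05 there were 10, against 22.1% of all genes, and limma-voom called 1 higher and 5 lower, against 5.88% and 6.25%. Apod, the apolipoprotein D gene, was lower, at 73.6 RPKM against 127 (-0.78, SE 0.11, limma adjusted p = 0.0219), and so was the fibronectin gene Fn1, at 448 against 664 (-0.57, SE 0.08, limma adjusted p = 0.0241). In footprints none of 25 was called by limma (8 at an unadjusted p under 0.05, and 3 lower by limma-voom, against 10.4% and 0.641% of all genes). All 30 listed markers had reads in every library. Their sum was 1228 and 1287 RPM in knockout total RNA and 1437 and 1443 in the wild type, of which Ptgds alone gave 59.3% to 62.5%. In footprints all 30 summed to 2540 and 2902 RPM in the knockout and 3224 and 3417 in the wild type. In both kinds of library both knockout sums lay below both wild-type sums, as those of the 4 proteoglycan genes did. The part of this in the proteoglycan differences was not tested. Without Ptgds and Apod, each lower in both knockout libraries and left out after their values were seen, the other 28 summed to 355 and 361 RPM in the knockout and 369 and 361 in the wild type. In footprints these 28 summed to 417 and 461 in the knockout and 445 and 531 in the wild type. Leaving out genes that are lower in the knockout brings the sums closer by itself, and no conclusion is drawn from it. The first 2 markers of the list are Pdgfra and Foxc1. In total RNA of knockout 1, knockout 3, wild type 2 and wild type 3, Pdgfra was at 11.3, 12.0, 11.6 and 11.5 RPKM. Foxc1 was at 11.5, 11.1, 12.7 and 13.1 RPKM. In footprints, in the same order of animals, Pdgfra was at 14.6, 16.8, 13.2 and 14.5 RPKM and Foxc1 at 4.04, 3.51, 6.69 and 10.2. Foxc1 thus lay lower in both knockout animals in both kinds of library. Pdgfra overlapped in total RNA and lay higher in footprints.

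Markers of neighbouring cells were read in the same way. Mural cell markers summed to 183 and 163 RPM in knockout total RNA and 228 and 194 in the wild type, and border macrophage markers to 16.1 and 18.2 against 22.5 and 26.0. None of 9 mural and none of 5 macrophage markers tested was called by limma (2 each at an unadjusted p under 0.05, and 2 each lower by limma-voom). Of all genes in total RNA, 22.1% had such a p, and limma-voom called 6.25% lower. Oligodendrocyte markers, with a median log2 fold change of -0.42, summed to 4015 and 3875 RPM in the knockout and 6117 and 4504 in the wild type. All 3 sums moved with the proteoglycan genes, and their part in those differences was not tested. Of 9 endothelial markers Cldn5 rose (0.84), where 2.48% of all genes rose. Of 5 blood genes none was called by limma (1 at an unadjusted p under 0.05, and 1 lower by limma-voom).

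**Figure D5:**
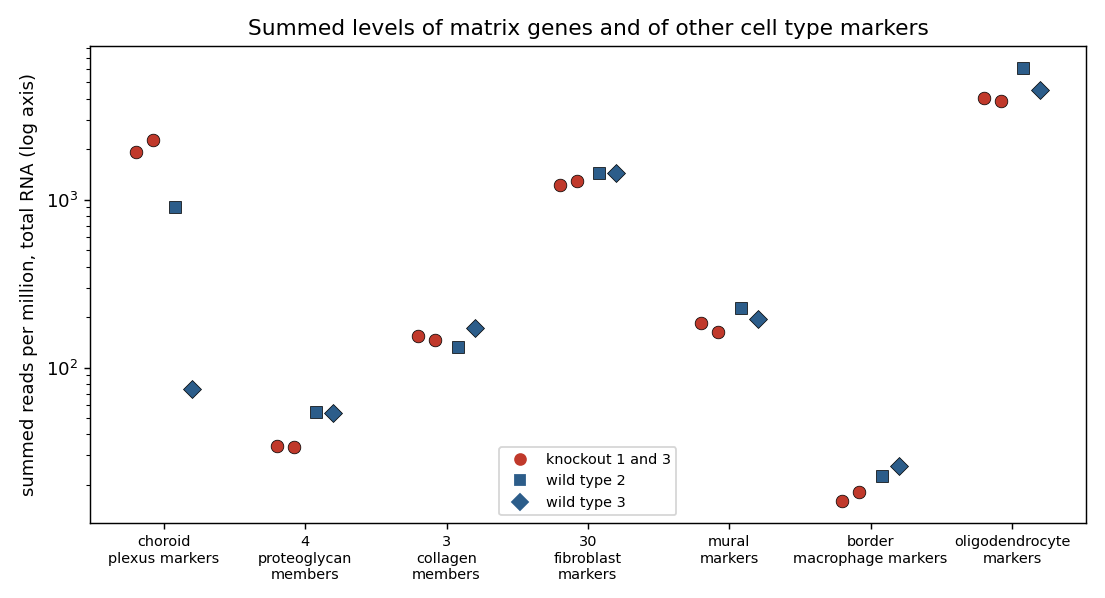
Summed RPM (reads scaled to library depth) in total RNA (vertical axis, log scale) of the proteoglycan and collagen members and of marker lists, for the 2 knockout libraries (circles), wild type 2 (squares) and wild type 3 (diamonds). The 4 proteoglycan genes separate the genotypes at 34.1 and 33.9 against 54.7 and 54.0, the 30 other fibroblast markers at 1228 and 1287 against 1437 and 1443, and choroid plexus markers range from 74.8 to 2277. Ptgds alone gives 59.3% to 62.5% of the sum of the 30. Without Ptgds and Apod, left out after their values were seen, the other 28 were at 355 and 361 against 369 and 361. Leaving out lower genes brings sums closer by itself.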

How the data were processed

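The 10 genes and all gene lists were chosen with earlier results of these data known. The tools named, without role or version, are STAR, Bowtie and Cufflinks, and the build is mm10, per the submitters' processing notes. The authors deposited RPKM per library, the ratio of footprint to total RNA RPKM per animal as translational efficiency, and a mean read count per gene. From the values, the mean read count is a geometric mean over the 8 libraries. With the relative depths seen in the steps between low values it gave reads for the 13880 genes above 0 in all libraries, rounded to whole numbers. Before rounding, 100.0% of 3328 values lay within 0.1 of a whole number in 416 genes with a mean count under 20. Genes with higher counts, all 10 members among them, were not in this check. The deposited ratio equalled the RPKM ratio within 2% in 100.00% of 47790 values.

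Log2(RPKM + 1) was fitted with limma 3.58.1 in R 4.3.3 and a trend of the variance with level, on genes whose RPKM averaged 1 or more over the libraries in the fit. For efficiency the tested term was genotype by library kind. The script was tested on simulated data. Footprints and total RNA of an animal share a lysate, so the animal as a block was an alternative for efficiency. The other alternatives were a pseudocount of 0.1, no filter, a mean read count of at least 100, quantile normalization, no trend, 1 fit of all libraries, limma-voom on recovered reads, the deposited ratio, and leaving out each library or animal. All 10 genes are named; of the lists, the called genes with the largest fold changes (at most 5 a list) and the first 2 genes of a marker list could be. The series' design text calls the samples biological replicates. Total RNA of knockout 2 and wild type 1 was not analysed here. Protein sequences were not used here.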

Additional observations from a re-analysis of the deposited data

How the results depend on the processing

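The 3 genes called in total RNA became 0 with no filter on low values and 5 with limma-voom on recovered reads, and between 1 and 4 when 1 library was left out (1, Col14a1, without knockout 1). In footprints the count of 0 became 1 (Igfbp2) with all libraries in one fit and 1 with limma-voom, and stayed at 0 without each library. In efficiency it was 0 under every alternative run, and 0 with the animal as a replicate block. No paired analysis was possible between genotypes because the columns share only the number 3. Of 314 log2 fold changes of single genes under alternatives, 291 kept their sign and their side of the threshold, 5 lost the call, 6 gained it and 12 changed sign, none of them a called value. Those were Col3a1 in total RNA (-0.31 to 0.070 with 1 library left out) and in footprints (-0.13 to 0.64), Col1a1 in footprints (-0.022 to 0.080), and in efficiency, with 1 animal left out, Lum (-0.23 to 0.011), Igfbp2 (-0.32 to 0.24) and Ogn (-0.33 to 0.13). Efficiency of Ogn was also 0.051 with a pseudocount of 0.1, 0.16 with limma-voom and 0.085 from the deposited ratio, and that of Lum 0.039 with limma-voom. The causes were not tested. Of the 10 related genes called in total RNA, 1 was called with no filter, where 26 of 17600 genes were. With 2 animals a group, differences smaller than about the spread of these animals were not detectable, and Col14a1 is limited by its read depth.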
